A study of Homo sapiens with 2 samples.

Results

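Chemokine genes and genes linked to NF-kB signalling were described in single cells of MDAMB468 and CAL51, established human cell lines from triple-negative breast cancers. The 10 genes were a set listed by name, CXCL1, CXCL2, CXCL3, CXCL8, CXCL16, CCL20, IL32, IL22RA2, NFKBIA and TNFAIP3, out of 30796 genes in the deposited matrix, and all 10 were found in it. Each line was 1 Drop-seq library. In Drop-seq cells and barcoded beads meet in droplets, and molecular tags (unique molecular identifiers, UMIs) let each captured mRNA molecule be counted once. No treatment of either line is named in the labels, and the label of both samples gives breast as the tissue. With 1 library per line no difference between lines has a replicate check and no p-value was computed. Intervals are given at 95% and reflect counting error alone.

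NF-kB is a family of transcription factors that is held in the cytoplasm by inhibitor proteins until receptors for cytokines or microbial products activate the kinases that remove the inhibitor. Among the genes it switches on are chemokines, small secreted proteins that attract leukocytes, and its own inhibitors, which end the signal. CXCL1, CXCL2, CXCL3 and CXCL8 attract neutrophils through the receptor CXCR2, and CCL20 attracts CCR6-bearing lymphocytes and dendritic cells. CXCL16 is made as a membrane-bound protein and binds CXCR6. IL32 is a cytokine of lymphocytes and epithelial cells, and IL22RA2 encodes a soluble receptor that binds and neutralises interleukin-22. NFKBIA encodes the inhibitor IkB-alpha, and TNFAIP3 encodes A20, an enzyme that edits ubiquitin chains and dampens signalling; both are NF-kB target genes.

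The NF-kB binding motif near the start sites is what most of these genes share in sequence, so it is shown first. RefSeq promoter sequences (GRCh38.p14) were found for 9 of the 10 genes, and the 250 bases before each start were searched on both strands. The kappa B consensus was present in 7 of the 9 genes against 5.21% of all 35116 promoter entries of that length, and the shorter string GGAATTTCC, which lies inside some consensus matches, in 5 of the 9 against 0.413%. The list was drawn up around NF-kB, and the promoters of CXCL1, CXCL2 and CXCL3 are copies of one another, so these counts describe the list and are not independent evidence. A match is a string of letters and not a measured binding site. The 30 bases around each match are printed 5′ to 3′ on the gene's strand, with the matching bases in capitals.

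CXCL1: tggaactccGGGAATTTCCCtggcccgggg
CXCL2: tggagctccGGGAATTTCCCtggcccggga
CXCL3: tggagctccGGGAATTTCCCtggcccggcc
CXCL8: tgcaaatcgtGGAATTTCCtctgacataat
CCL20: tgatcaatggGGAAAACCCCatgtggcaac
NFKBIA: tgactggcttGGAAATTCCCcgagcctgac
TNFAIP3: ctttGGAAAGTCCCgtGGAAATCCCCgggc
IL32: ctgtactcaGGGAGTTTCCCcagccagctg

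These stretches lie at chr4:73869305-73869334 on the plus strand for CXCL1, chr4:74099253-74099282 on the minus strand for CXCL2, chr4:74038748-74038777 on the minus strand for CXCL3 and chr4:73740468-73740497 on the plus strand for CXCL8. That of CCL20 lies at chr2:227813753-227813782 (plus), that of NFKBIA at chr14:35404811-35404840 (minus), that of TNFAIP3 at chr6:137867188-137867217 (plus) and that of IL32 at chr16:3065295-3065324 (plus). In GENCODE release 29 those of CXCL2, CXCL3, IL32 and TNFAIP3 also overlap an annotated exon of the same gene, and those of CXCL1, CXCL8, CCL20 and NFKBIA overlap no exon. The core GGGAATTTCCC was identical in CXCL1, CXCL2 and CXCL3, CXCL8 had only the shorter string, and TNFAIP3 had 2 consensus matches in 30 bases. IL22RA2 had neither string in its 250 bases, nor had the downstream entry of IL32, which has 2. An AP-1 string, TGANTCA, was found only in CXCL8 (6.57% of all promoter entries), and TATAAA on the gene's strand in CXCL8 and CCL20 (6.80% of all entries).

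MDAMB468 had 306 barcodes and 5501900 UMIs, with a median of 10016.5 per barcode. In CAL51 31 barcodes whose sequence also occurred in the MDAMB468 library were left out, and the remaining 1346 held 16223444 UMIs with a median of 8635. In MDAMB468 64 barcodes, and in CAL51 7, differed by 1 base from another barcode of that line holding 5 or more times as many UMIs. These satellite barcodes were kept in the sums, and whether they repeat the cell of the larger barcode was not tested. As a check of the labels, EGFR stood at 459 counts per 1000000 UMIs of the library (CPM) in MDAMB468 and 12.1 in CAL51, and RB1 at 3.27 and 78.0 CPM. Of 8 epithelial marker genes all had UMIs in MDAMB468 and 7 in CAL51, where KRT7 was at 0 and CDH1 had only 7 UMIs (0.431 CPM). On the scale given below, 6 of the 8 were at least 2-fold higher in MDAMB468 and 1 was at least 2-fold lower. Of 8 stromal and endothelial markers 7 were analysed here and summed to 112 UMIs in MDAMB468 and 185 in CAL51. Among them KDR had 102 and 2 UMIs, ACTA2 3 and 132, and PDGFRB 0 and 44. Of 14 leukocyte markers 10 were analysed here, and they summed to 13 UMIs in MDAMB468 and 19 in CAL51, with PTPRC, the general leukocyte marker, at 0 and 3, so leukocyte markers were at or near 0 in both lines.

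Most of the listed genes were higher in MDAMB468. The difference between lines is given as log2 of CPM + 1 in MDAMB468 minus the same in CAL51, and a gene is counted as higher or lower from a difference of 1, that is 2-fold on this scale. Of the 9 listed genes with at least 20 UMIs over both lines, 7 were higher in MDAMB468, where 15.8% of the 15347 genes at that depth were, 1 was lower, where 18.6% were, and 1 lay within 2-fold. CXCL1 had too few UMIs. The median difference of the 9 was 1.74, against -0.13 over all 15347 genes. CXCL2 (53 and 4 UMIs), CXCL3 (147 and 9) and IL22RA2 (661 and 0) reached 20 UMIs in MDAMB468 alone, and IL32 (0 and 144) in CAL51 alone. For such genes the filter itself favours a called difference. The listed genes and the lists of roles below were also chosen with earlier results of these data known. These counts therefore describe the lists and are not independent evidence. Of the 7 higher genes 4 stood under 1 CPM in CAL51, and with 10 CPM in place of 1 as the added constant 2 genes were counted as higher and 0 as lower.

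**Figure D1:**
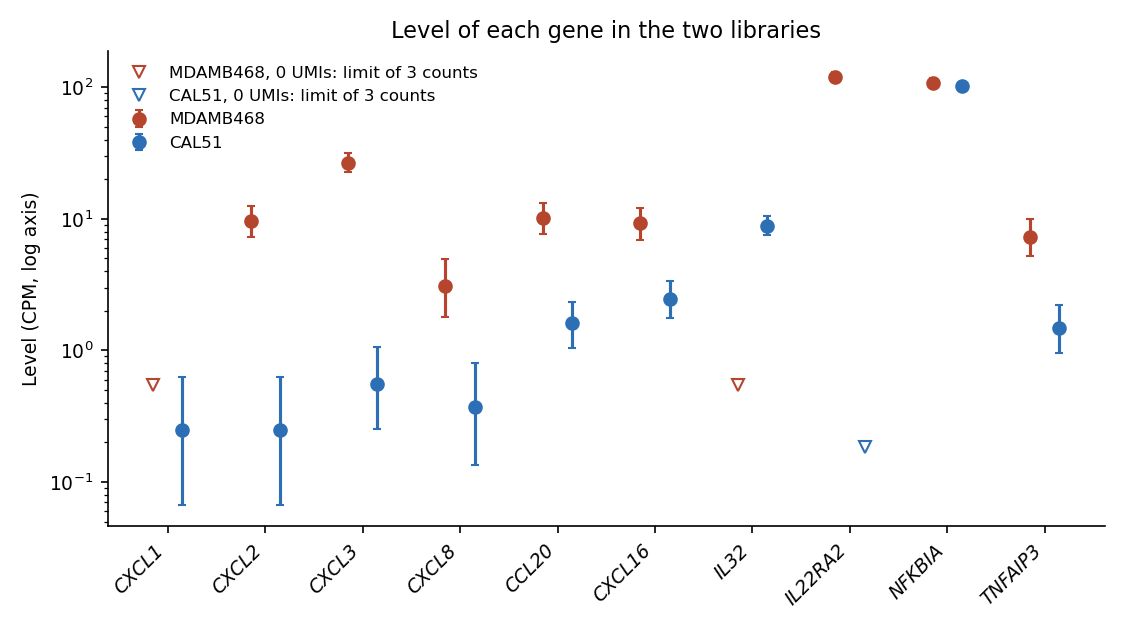
Level of each gene in CPM (log axis) in the MDAMB468 and CAL51 libraries; bars are exact 95% Poisson intervals of the UMI sums, and open triangles mark genes with 0 UMIs at the limit that 3 counts set. NFKBIA stands at 108 and 102 CPM, while CXCL3, at 26.7 and 0.555 CPM, and IL22RA2, at 120.1 CPM and 0 UMIs, are apart.

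CXCL3 had the highest level of the listed chemokines in MDAMB468, in CPM that were not scaled to gene length because a UMI counts a molecule. MDAMB468 gave 147 UMIs of the gene (ENSG00000163734; GRCh38 chromosome 4, 74036589 to 74038807), or 26.7 CPM with an interval of 22.6 to 31.4. CAL51 gave 9 UMIs, or 0.555 CPM with an interval of 0.254 to 1.05. The ratio of MDAMB468 to CAL51 was 48.2 (interval 24.7 to 107), and the intervals of the levels did not overlap. CXCL2 (ENSG00000081041; chromosome 4, 74097035 to 74099293), its neighbour and close paralog, had 53 UMIs (9.63 CPM, interval 7.22 to 12.6) and 4 UMIs (0.247 CPM, interval 0.0672 to 0.631), a 39.1-fold difference with an interval of 14.4 to 149.

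CXCL1, another close paralog, was not seen in MDAMB468. The gene (ENSG00000163739; chromosome 4, 73869393 to 73871242) had 0 UMIs there, where 3 counts would be 0.545 CPM and the exact interval reaches 0.670 CPM. It had 4 in CAL51 (0.247 CPM), all 4 in 1 barcode, so no difference was detectable at this depth. All 3 genes carry the core string shown above. Their transcripts in GENCODE release 29 are alike but seldom identical over long stretches. Of all 60-base windows, 2.70% in CXCL1, 5.69% in CXCL2 and 3.74% in CXCL3 occur unchanged in either of the other genes, and in the last 400 bases, 7.62%, 7.62% and 0%. Neither the read length nor the handling of reads that match several genes is stated, so the split of UMIs among these 3 genes is uncertain.

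CXCL8, the interleukin-8 gene (ENSG00000169429; chromosome 4, 73740506 to 73743716), was rare in both lines. The 17 UMIs in MDAMB468 made 3.09 CPM (interval 1.80 to 4.95) and the 6 in CAL51 made 0.37 CPM (interval 0.136 to 0.805), so the ratio was 8.35 (interval 3.14 to 25.9). CCL20 (ENSG00000115009; chromosome 2, 227805739 to 227817564) had 56 UMIs (10.2 CPM, interval 7.69 to 13.2) and 26 UMIs (1.60 CPM, interval 1.05 to 2.35), a 6.35-fold difference with an interval of 3.92 to 10.5. Its MDAMB468 level was close to that of CXCL2, with overlapping intervals, and below that of CXCL3. A single MDAMB468 barcode held 31 of the 56 CCL20 UMIs and 1 CAL51 barcode 11 of the 26. Without that MDAMB468 barcode and its satellite the ratio was 2.64 (interval 1.44 to 4.82), and the log2 difference was 1.01 in place of 2.10, barely past 2-fold. Without the richest barcode of both lines the ratio was 4.97 (interval 2.52 to 10.1).

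CXCL16 (ENSG00000161921; chromosome 17, 4733526 to 4739922), the membrane-bound chemokine, differed less. The MDAMB468 library held 51 UMIs, or 9.27 CPM (interval 6.90 to 12.2). The CAL51 library held 40, or 2.47 CPM (interval 1.76 to 3.36). The ratio was 3.76 with an interval of 2.44 to 5.84. Of ADAM10 and ADAM17, the proteases that shed it from the cell surface, ADAM10 was 3.88-fold higher in CAL51 (interval 3.40 to 4.45; 43.6 and 169 CPM) and ADAM17 lay within 2-fold. The receptor genes CXCR2 and CXCR6 had 0 UMIs in MDAMB468 and 1 each in CAL51, and CXCR1 and CCR6 were not analysed here.

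IL22RA2 and IL32 each had UMIs in 1 of the libraries, in opposite directions. MDAMB468 held 661 UMIs of IL22RA2 (ENSG00000164485; chromosome 6, 137143820 to 137173648), a level of 120.1 CPM with an interval of 111 to 130, and CAL51 held 0. Against a floor of 3 counts in the CAL51 library the MDAMB468 level was 649.7-fold higher. That floor is 0.185 CPM, and the exact interval of the CAL51 level reaches 0.227 CPM. Folds given as at least are such ratios of a level to the floor and leave out counting error. IL22RA1, the signalling receptor for the same ligand, had 7 and 5 UMIs, and the ligand gene IL22 was not analysed here. IL32 (ENSG00000008517; chromosome 16, 3065297 to 3082192) had 0 UMIs in MDAMB468, where the floor is 0.545 CPM and the exact interval reaches 0.670 CPM. CAL51 held 144, or 8.88 CPM with an interval of 7.49 to 10.4. The CAL51 level was 16.3-fold that floor, and IL32 was the only one of the 9 genes counted as lower in MDAMB468.

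NFKBIA, the gene for IkB-alpha (ENSG00000100906; chromosome 14, 35401511 to 35404749), was within counting error between the lines. Its 593 UMIs in MDAMB468 made 108 CPM (interval 99.3 to 117), and its 1648 in CAL51 made 102 CPM (interval 96.7 to 107). The ratio was 1.06 with an interval of 0.964 to 1.17, and the log2 difference of 0.08 lay between -0.07 (without the barcode richest in TNFAIP3) and 0.20 (median of ratios scaling) over the settings tried, so no direction is given. TNFAIP3, the gene for A20 (ENSG00000118503; chromosome 6, 137867188 to 137883312), had 40 UMIs (7.27 CPM, interval 5.19 to 9.90) and 24 UMIs (1.48 CPM, interval 0.948 to 2.20), a 4.91-fold difference with an interval of 2.89 to 8.52. That difference rested on 1 barcode with 26 of the 40 UMIs. Without the richest barcode of each line the ratio was 1.90 with an interval of 0.898 to 3.88, and the log2 difference of 0.60 no longer reached 2-fold.

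IL22RA2 and NFKBIA were found in many barcodes and the chemokines in few. To remove the effect of depth, every barcode was thinned at random to 2500 UMIs, which all reached. In MDAMB468 85 of 306 barcodes then held an IL22RA2 UMI (27.8%, interval 22.8% to 33.2%), against 61.8% before thinning, and none of 1346 CAL51 barcodes did. For that 0 the limit of 3 counts is 0.223% and the exact interval reaches 0.274%. NFKBIA was found in 25.8% of MDAMB468 barcodes (interval 21.0% to 31.1%) and 21.2% of CAL51 barcodes (interval 19.1% to 23.5%), intervals that overlap; before thinning the shares were 55.6% and 53.0%.

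The chemokines were found in far fewer barcodes. CXCL3 was present in 18 MDAMB468 barcodes (5.88%, interval 3.52% to 9.14%; 10.8% before thinning) and 1 CAL51 barcode (0.0743%; 0.446% before). CXCL2 was present in 8 barcodes (2.61%; 5.88% before) and 2 barcodes (0.149%, the same before). CXCL16 was found in 1.96% and 0.52%, CCL20 in 1.31% and 0.149%, TNFAIP3 in 0.98% and 0.297%, and CXCL8 in 0.654% and 0%. IL32 was found in 26 CAL51 barcodes (1.93%, interval 1.27% to 2.82%; 4.68% before thinning) and 0 MDAMB468 barcodes, for which the limit of 3 counts is 0.98% and the exact interval reaches 1.20%. The highest share of any leukocyte marker, genes that neither line should express, was 0.327% in MDAMB468 and 0.0743% in CAL51, from 1 barcode each, so the CAL51 shares of CXCL1, CXCL3, CXCL8 and IL22RA2 lay at or under that background. The intervals of the 2 lines did not overlap for CXCL2, CXCL3, IL22RA2 and IL32, for the last only narrowly.

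**Figure D2:**
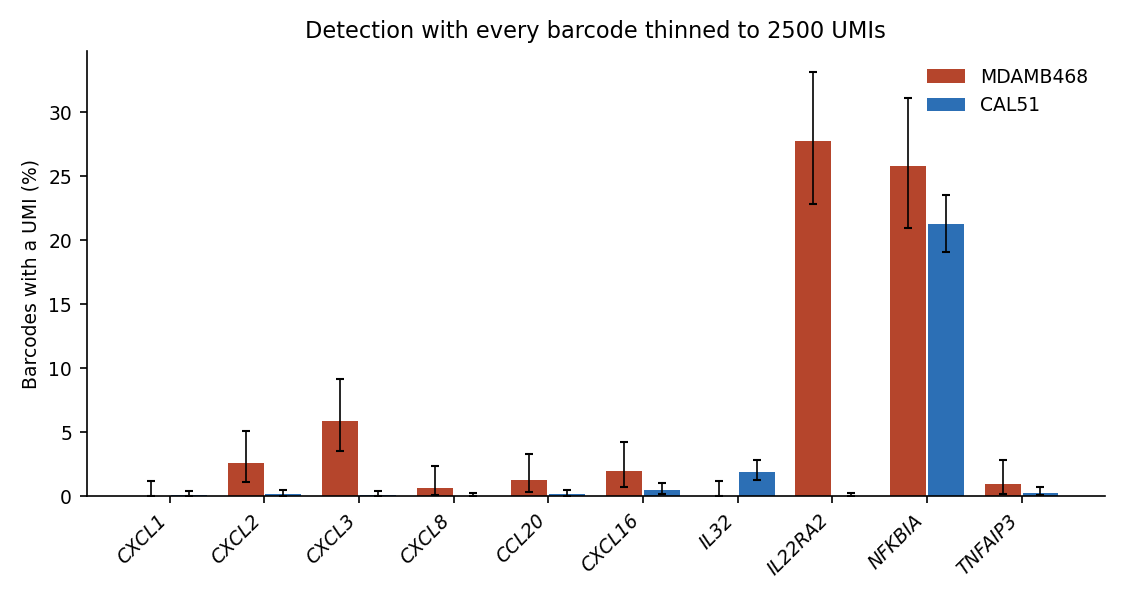
Share of barcodes with at least 1 UMI of each gene after thinning every barcode to 2500 UMIs, for 306 MDAMB468 and 1346 CAL51 barcodes; error bars are exact 95% binomial intervals. IL22RA2 reaches 27.8% in MDAMB468 and 0% in CAL51, NFKBIA 25.8% and 21.2%, and the remaining genes stay under 6%.

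IL22RA2 and NFKBIA had the same mean in MDAMB468 at equal depth, and the larger spread of NFKBIA rested largely on 1 barcode and its satellite. Both had 99 UMIs over the thinned barcodes, a mean of 0.324. The Fano factor, the variance of the UMIs over their mean, which is 1 for random sampling of an evenly expressed gene, was 1.003 for IL22RA2 and 1.31 for NFKBIA. Over the 1155 genes with a mean within 1.5-fold it had a median of 1.05, with 1.28 at the 95th percentile. Without the barcode with the most TNFAIP3 and its satellite the Fano factor of NFKBIA was 1.04. With all satellite barcodes left out it was 1.20, under the 1.33 at the 95th percentile of genes of like mean. In CAL51 NFKBIA had a Fano factor of 1.23 (95th percentile of genes of like mean 1.21), but it lay inside the range of like genes at the other depths, at 1.22 (95th percentile 1.34) with 5000 UMIs and 1.07 (95th percentile 1.13) with 1000.

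CXCL3 in MDAMB468 had a Fano factor of 1.56, above the 1.23 at the 95th percentile of 2520 genes of like mean. It was 3.03 (95th percentile 1.31) when 5000 UMIs were kept per barcode. When 1000 were kept, with only 5 CXCL3 UMIs left, it was 0.987, at the median of genes of like mean. IL32 in CAL51 had a Fano factor of 1.31 (95th percentile 1.17 over 2140 genes). At 5000 UMIs it was 1.66 (95th percentile 1.24), and at 1000 UMIs, with only 5 IL32 UMIs left, 0.997, at the median of genes of like mean. The other genes had fewer than 20 UMIs after thinning in either line, too few to read a spread from.

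**Figure D3:**
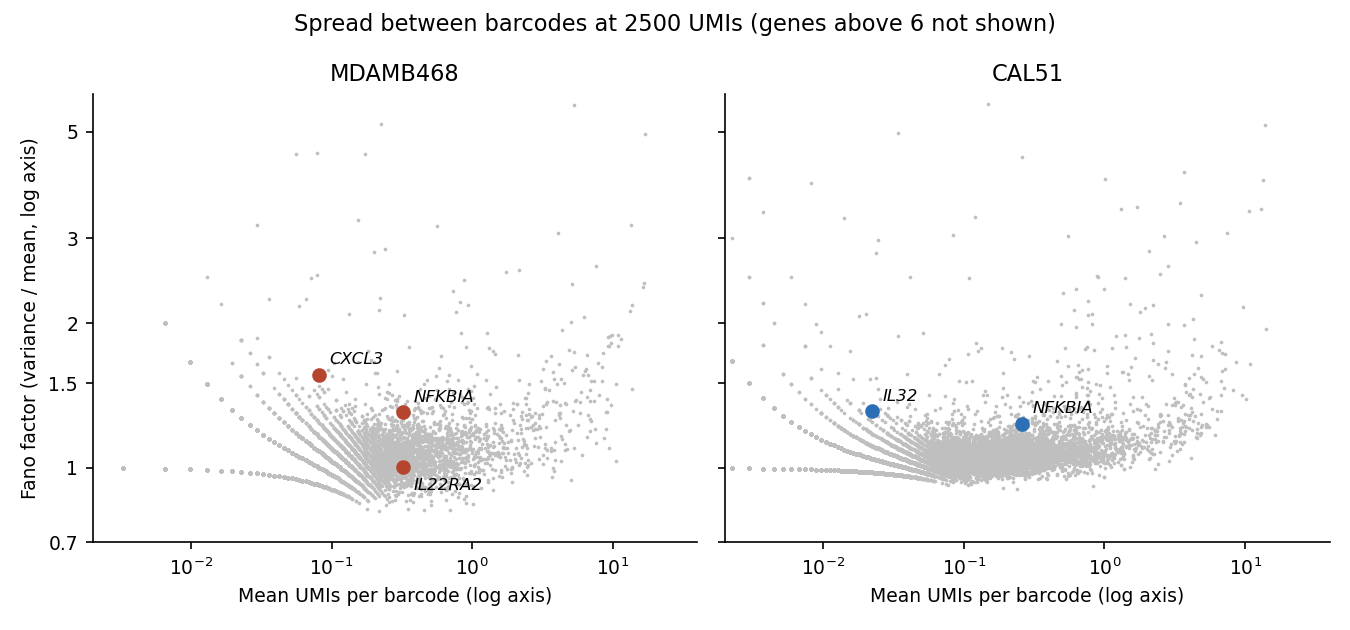
Fano factor against mean UMIs per barcode (both log axes) at 2500 UMIs for all genes with a mean of at least 0.002 (grey) and the listed genes with at least 20 UMIs (coloured). In MDAMB468 IL22RA2 and NFKBIA stand at the same mean with Fano factors of 1.003 and 1.31, and CXCL3 stands at 1.56; in CAL51 IL32 stands at 1.31 and NFKBIA at 1.23.

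In the unthinned MDAMB468 library the inducible genes were concentrated in few barcodes. CXCL2, CXCL3, CXCL8, CCL20 and TNFAIP3 together had 297 UMIs in the 242 barcodes that are not satellites. Of these UMIs 221 (74.4%) were in the 10 richest barcodes, while 198 barcodes had none. With barcodes ranked anew for each gene and satellites included, the 5 richest in CXCL3 held 50% or more of its UMIs. The 3 richest in CXCL2 held 50% or more of the CXCL2 UMIs. At most 22 CXCL3 UMIs and 11 CXCL2 UMIs were in 1 barcode. For IL22RA2 the same share took 34 barcodes and the richest held 19 of 661, and 32 of the 40 barcodes with CXCL16 held a single UMI. Barcodes with CXCL3 were deep, with a median total of 18169 UMIs, and depth was set equal only in the thinned values above.

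The richest barcodes did not all hold the same genes. These barcodes were picked after their values had been seen. The MDAMB468 barcode with the most UMIs of the 5 genes, 59 in a total of 68673, held 31 CCL20, 26 TNFAIP3 and 63 NFKBIA UMIs but only 1 CXCL3, 1 CXCL8 and 0 CXCL2. It also held 97 of the 136 UMIs of CXCL10, an interferon-induced chemokine, 97 of the 105 UMIs of CCL5, a T cell attractant, 38 of 110 of BIRC3, an inhibitor of apoptosis, 18 of 32 of IL6 and 14 of 37 of TNF. Its NFKBIA level was 917 CPM (interval 705 to 1174), against 97.5 CPM over the other MDAMB468 barcodes. Its IL22RA2 level, 131 CPM (interval 59.9 to 249), was close to the 120 CPM of the others. KRT7, an epithelial keratin, was at 772 CPM in it and 955 CPM in the others, and PTPRC was at 0 UMIs.

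Most of the other rich MDAMB468 barcodes were led by CXCL3 or CXCL2. The next, with 131840 UMIs, had 18 CXCL3, 8 CXCL2 and no CCL20, CXCL8 or TNFAIP3. The third, with 28046 UMIs, had 12 CXCL3, 8 CXCL2, 5 CXCL8 and 1 CCL20, and 5 NFKBIA. The fourth had 22 CXCL3 and no CXCL2 or CXCL8, and the seventh had 11 CXCL2 and no CXCL3. The eleventh was led by CCL20, with 5 UMIs of it, 2 each of CXCL3 and CXCL8, and no CXCL2. CXCL2 and CXCL3 were therefore found both together and apart, and NFKBIA ran from 1 to 63 UMIs over the 12 richest. In CAL51 a barcode with only 5927 UMIs held all 4 CXCL1 UMIs of the library with 5 CCL20, 3 of the 6 CXCL8 and 2 CXCL3, whereas a barcode with 34378 UMIs held 11 CCL20 and none of the CXCL genes. IL32 had 1 UMI in the barcode of 5927 UMIs and 0 in that of 34378 UMIs, and its richest CAL51 barcode held 23 of 144 UMIs, and its 9 richest held 50% or more.

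**Figure D4:**
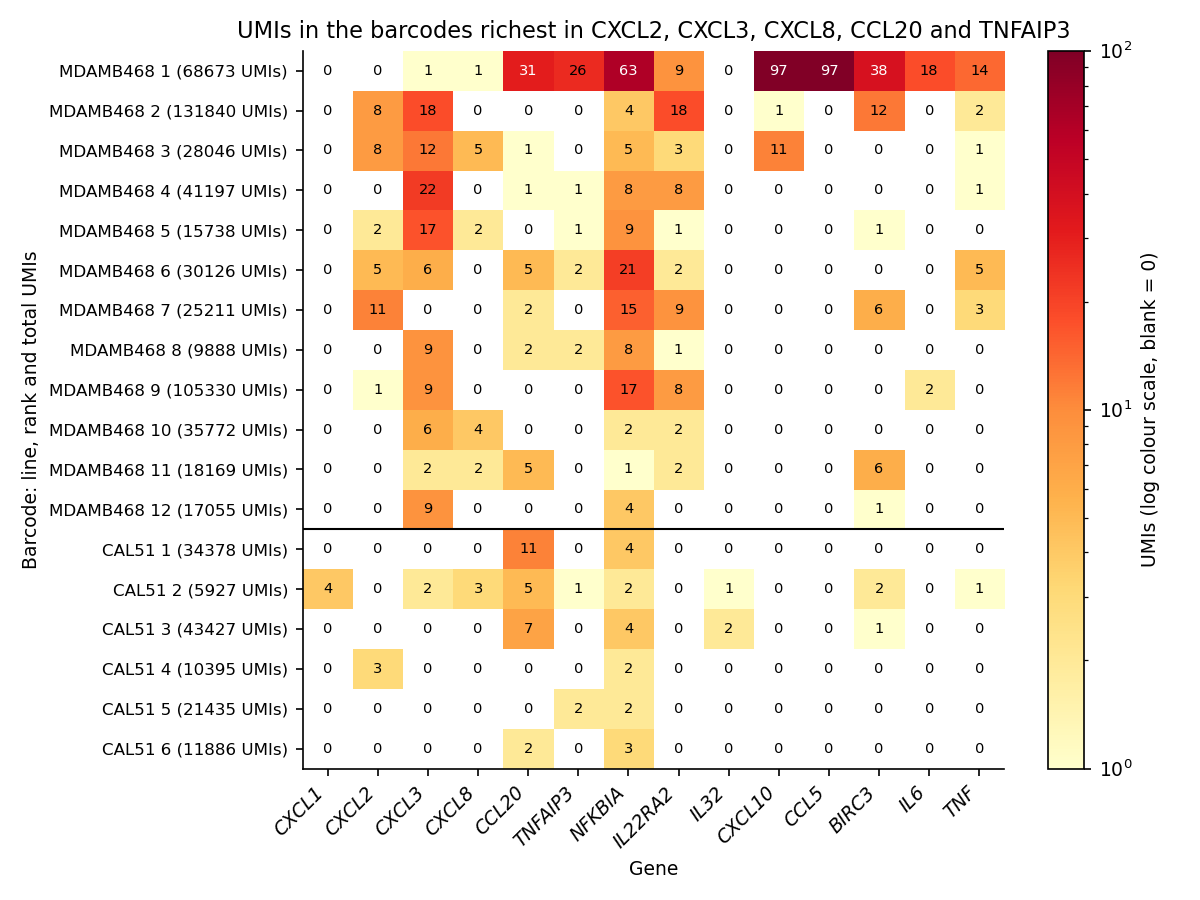
UMIs (not thinned, log colour scale, 0 blank) of listed and further genes in the 12 MDAMB468 and 6 CAL51 barcodes with the most UMIs of CXCL2, CXCL3, CXCL8, CCL20 and TNFAIP3, satellite and shared barcodes left out; each row is a barcode with its total. The first row has 31 CCL20, 26 TNFAIP3, 63 NFKBIA, 97 CXCL10 and 97 CCL5 UMIs but 1 CXCL3 UMI, and rows 2 to 5 are led by CXCL3.

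Joint detection was described over the 208 MDAMB468 barcodes with at least 5000 UMIs that are not satellites, each thinned to 5000. No chemokine of CXCL2, CXCL3, CXCL8 and CCL20 was found in 194 of them (93.3%), 1 was found in 8, 2 in 3 and 3 in 3 barcodes. Of the 5 barcodes with CCL20, 4 had CXCL3 (80%, interval 28.4% to 99.5%), against 7 of the 203 without CCL20 (3.45%, interval 1.40% to 6.98%). Both barcodes with CXCL8 had CXCL3. These shares rest on few barcodes: of those with CCL20, 33.3% had CXCL3 when thinned to 2500 UMIs and 20% when thinned to 10000. CXCL3 was found in 10.3% of barcodes with NFKBIA (interval 4.24% to 20.1%) and 2.86% of those without (interval 0.784% to 7.15%), and in 10.3% of barcodes with IL22RA2 and 1.65% of those without; in both cases the intervals overlapped. CXCL16 was found in none of the 11 barcodes with CXCL3 (interval 0% to 28.5%), and in 7.11% of the others (interval 3.94% to 11.6%). These intervals overlap, so 11 barcodes are too few to tell the shares apart. IL22RA2 was found in 47.1% of barcodes with NFKBIA (interval 34.8% to 59.6%) and 39.3% of those without (interval 31.1% to 47.9%).

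Only IL22RA2 and NFKBIA were found in at least 10% of these barcodes, and for them the genes of most similar pattern were sought among 5864 genes. The highest Pearson correlations across the 208 barcodes of this 1 library were 0.28 for IL22RA2, with SYT12, followed by BLOC1S6 and DIS3L, and 0.31 for NFKBIA, with SERINC3, followed by MACROH2A2 and TAGLN2. Correlations of this size in sparse counts are no finding, and the correlation between IL22RA2 and NFKBIA themselves was 0.09.

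Other genes of the same roles were compared from lists ordered by function, and each count stands beside the 15.8% of all genes tested that were higher in MDAMB468 and the 18.6% that were lower. Of 31 other chemokine genes 10 were analysed here and 5 had at least 20 UMIs; 4 of these were higher in MDAMB468 and none lower, with a median difference of 2.68. CCL28, a mucosal chemokine, was 38.1-fold higher (interval 24.4 to 62.5; 49.3 and 1.29 CPM), CXCL10 36.5-fold (interval 19.7 to 74.8) with 97 of its 136 UMIs in 1 barcode, and CXCL11, which shares its receptor, 94.4-fold on 1 CAL51 UMI (interval 15.8 to 3842). CCL5 stood at 19.1 and 18.6 CPM. Without the single barcode richest in TNFAIP3 and its satellite 3 of the 5 were higher and 1, CCL5, was lower in MDAMB468. CXCL11 then had 4 UMIs in MDAMB468 and a log2 difference of 0.71, no longer past 2-fold, and CXCL10 was 9.23-fold higher (interval 4.57 to 20.2).

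Of 8 cytokine genes with at least 20 UMIs 6 were higher in MDAMB468 and none lower (median 2.49). TNFSF10, which encodes the death ligand TRAIL, was at least 57.0-fold higher, TNFSF15 at least 34.4-fold, and TNF, with 14 of its 37 UMIs in the barcode described above, 109-fold on 1 CAL51 UMI (interval 18.4 to 4424, and 68.7-fold without that barcode). Without that barcode and its satellite TNFSF15 had 12 MDAMB468 UMIs in place of 35. Its log2 difference was then 1.68 in place of 2.88, while TNFSF10 kept its 58 UMIs. Of 18 other NF-kB target genes 10 were higher and 3 lower (median 2.32). LCN2, a secreted iron-siderophore binding protein, was at least 259-fold higher, PLAU, the urokinase gene, 43.8-fold (interval 28.7 to 70.1) and GBP1, a guanylate-binding protein, 16.8-fold (interval 10.9 to 27.2). PTX3, a secreted pattern recognition protein, had 0 UMIs in MDAMB468 and 762 in CAL51, at least 86.1-fold higher in CAL51, BCL2L1 was 4.13-fold and TNFAIP8 3.28-fold higher there.

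Of 5 subunit genes 1, RELB, was higher in MDAMB468 (3.37-fold, interval 1.80 to 6.36, on 24 and 21 UMIs), none was lower and the median was 0.44. Of 17 inhibitors and feedback regulators other than NFKBIA and TNFAIP3, 4 were higher and 1 lower (median 0.20), again beside 15.8% and 18.6% of all genes tested. The ribonuclease gene ZC3H12A was 8.26-fold higher (interval 5.16 to 13.6), NFKBIZ, which encodes a nuclear IkB protein, 5.06-fold (interval 4.26 to 6.02) and ZFP36, whose product destabilises cytokine mRNAs, 4.60-fold (interval 3.79 to 5.59), while the ubiquitin ligase gene ITCH was 2.71-fold higher in CAL51. Without the barcode richest in TNFAIP3 and its satellite ZFP36 was 3.50-fold higher in MDAMB468 (interval 2.85 to 4.31). Of 27 adaptors and kinases 6 were higher and 3 lower (median 0.44), beside 15.8% and 18.6% of all genes tested, so the list lay near the general share. The MDAMB468 level of BIRC3 was 17.1 times that in CAL51 (interval 10.4 to 29.4, and 11.3 times without the barcode richest in TNFAIP3). TANK was 3.54-fold and IRAK1 3.48-fold higher in MDAMB468. RIPK2, the kinase of the NOD receptors, was 5.23-fold higher in CAL51 (interval 4.60 to 5.98), TRAF5 2.93-fold and MAP3K14 2.71-fold.

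Of 15 receptors upstream of NF-kB 5 were higher and 2 lower in MDAMB468 (median 0.51). The Toll-like receptor gene TLR6 was at least 105-fold higher (107 UMIs against 0), TLR1 106-fold on 1 CAL51 UMI (interval 17.9 to 4308) and IL1R1, the interleukin-1 receptor gene, 8.11-fold (interval 4.49 to 15.4). TNFRSF11A was 4.35-fold and IL17RC 3.33-fold higher in CAL51. The main tumour necrosis factor receptor gene, TNFRSF1A, lay within 2-fold, at 17.3 and 27.0 CPM. All of these list medians stand beside a median of -0.13 over all genes tested.

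**Figure D5:**
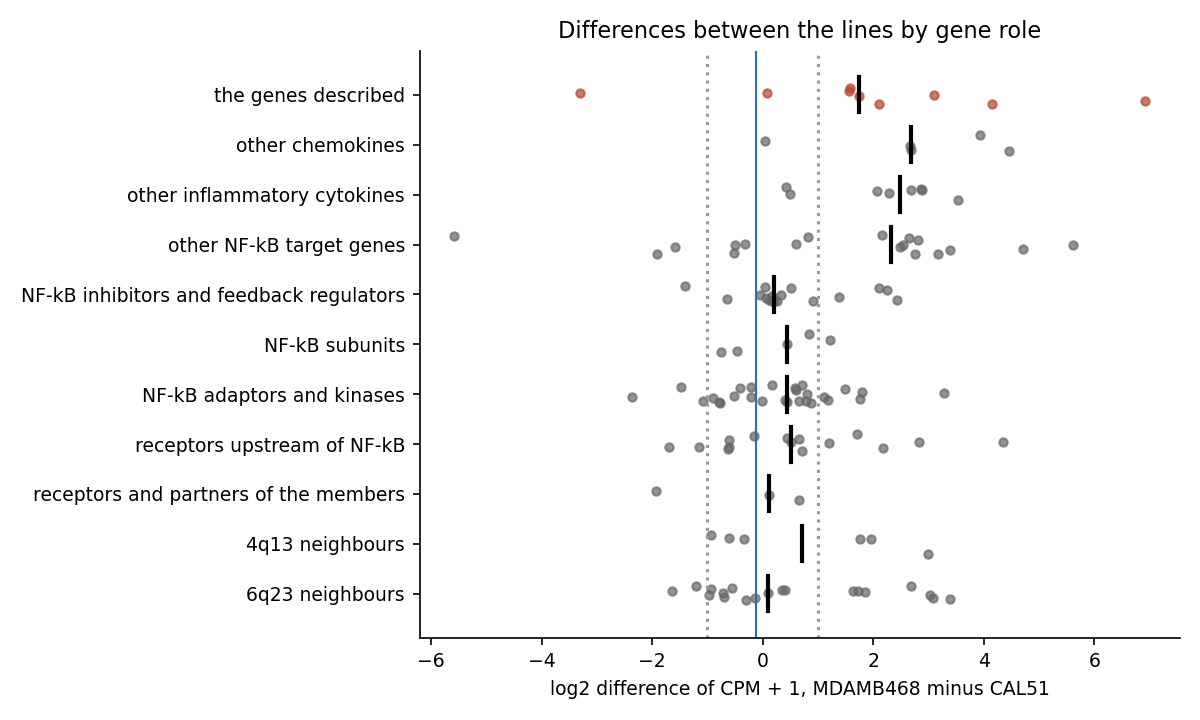
Log2 difference of CPM + 1, MDAMB468 minus CAL51, of each gene with at least 20 UMIs, by role; black bars are list medians, dotted lines mark 2-fold and the blue line the median of all 15347 genes. Medians of other chemokines, other cytokines and other target genes lie between 2.32 and 2.68, and those of subunits, inhibitors and kinases between 0.20 and 0.44.

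Several of the listed genes lie near one another, so their neighbours were compared too. CXCL8, CXCL1, CXCL3 and CXCL2 lie within chromosome 4 from 73740506 to 74099293. Of 6 neighbours with at least 20 UMIs 3 were higher in MDAMB468, none lower and 3 within 2-fold, with a median of 0.71. Of all genes tested 15.8% were higher and 18.6% lower. The higher ones were AREG, an EGFR ligand gene, at least 37.4-fold, BTC, another, 15.5-fold (interval 5.22 to 62.0) and ADAMTS3 6.11-fold (interval 3.13 to 12.5). The 3 within 2-fold all leaned towards CAL51, with log2 differences of -0.93 for COX18, -0.61 for MTHFD2L and -0.33 for ANKRD17. The intervals of their ratios of MDAMB468 to CAL51 lay below 1 (0.363 to 0.676, 0.533 to 0.783 and 0.708 to 0.885). COX18, at 9.09 and 18.2 CPM, was just past 2-fold before 1 CPM was added. IL22RA2 and TNFAIP3 lie on the same arm of chromosome 6. Of 19 neighbours there 7 were higher and 2 lower, with a median of 0.10, beside 15.8% and 18.6% of all genes tested. IFNGR1, the interferon-gamma receptor gene that starts at 137197484, next to IL22RA2, was 10.9-fold higher (interval 9.63 to 12.3), IL20RA, which ends at 137045180 on its other side, at least 40.3-fold, and MYB 13.4-fold (interval 8.38 to 22.3). HEBP2 and NHSL1 were 3.15-fold and 2.52-fold higher in CAL51.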

How the data were processed

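The authors deposited UMI counts per gene and barcode, made with STARsolo per the submitters' processing notes; no source used here gives its version, the genome build, the annotation, the strand setting or any barcode selection. The deposited counts are whole numbers with no normalisation. Barcode names start with the cell line and assigned barcodes to libraries. The genes and lists were chosen with earlier results of these data known. Symbols matched 30730 of 30796 identifiers; positions came from GENCODE release 29 (GRCh38) by identifier. No filter was applied to barcodes beyond leaving out of CAL51 the 31 sequences found in both libraries (0.827% of its UMIs), and doublets were not removed.

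UMIs were summed per line and scaled to CPM. Genes with at least 20 UMIs entered the counts past 2-fold. Intervals of sums are exact Poisson, of ratios exact conditional binomial and of shares Clopper-Pearson. A gene at 0 UMIs was set against a floor of 3 counts per library. Folds given as at least are the level in the other library over that floor, without counting error. Thinning drew UMIs without replacement with a fixed seed. Promoter entries came from RefSeq. Scripts were tested on simulated counts. Named genes are all 10 listed genes, up to 3 genes in each direction from each list past 2-fold, and EGFR and RB1; others were picked after their values were seen. Alternatives were TMM, median of ratios and another total, constants of 0.1 and 10 CPM, shared barcodes kept, satellites left out, single-barcode means and other thinning depths; leaving out the richest barcodes was added after seeing the data. Tools were edgeR 4.0.16 (TMM factors only), matplotlib 3.10.9, scipy 1.17.1, pandas 2.3.3, numpy 2.4.6 and Python 3.11.15.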

Additional observations from a re-analysis of the deposited data

Results flagged for a closer look

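The 31 CAL51 barcodes left out because their sequence also occurs in the MDAMB468 library held 16 UMIs of NFKBIA (118 CPM in 135240 UMIs, interval 67.6 to 192), a signal in barcodes that the main comparisons leave out and that enter only the alternative in which they are kept in CAL51. They also held 3 UMIs each of IL22RA2 and CXCL16, 2 each of CXCL2 and TNFAIP3 and 1 of CCL20. The 3 IL22RA2 UMIs were the only ones under the CAL51 label. The same 31 barcodes held 106 UMIs of KRT7, which was at 0 in the other CAL51 barcodes, 347 of KRT19 and 50 of EGFR, all genes higher in MDAMB468. Of genes higher in CAL51 they held 203 UMIs of KRT18, 5 of PTX3 and 2 of RB1. Whether they hold RNA of MDAMB468 cells was not tested, so their IL22RA2 UMIs cannot be assigned to CAL51 cells.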

How the results depend on the processing

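No paired analysis was possible because each line is 1 library. Of 218 recomputed counts of genes past 2-fold 204 stayed within 1.5 times, and no log2 difference of a listed gene reversed from a called direction under any alternative run. Of the log2 differences themselves 80 stayed and 20 moved, and of the shares of barcodes 94 stayed and 26 moved. For Fano factors these numbers were 23 and 7, for correlations 16 and 8, and for joint detection shares 21 and 3. The log2 difference ran from 0.94 to 4.81 for CXCL2 and from 0.34 to 2.76 for CXCL8. With a constant of 10 CPM in place of 1, the listed genes higher in MDAMB468 numbered 2 and those lower 0; receptors upstream of NF-kB numbered 2 higher and 0 lower, adaptors and kinases 3 higher, subunits 0 higher, other cytokines 1 higher, chromosome 4 neighbours 0 higher and chromosome 6 neighbours 1 lower, because adding more to low levels shrinks their difference. With TMM scaling 1 chromosome 4 neighbour and 4 chromosome 6 neighbours were lower, and with the mean of single-barcode CPM 1 subunit and 1 chromosome 4 neighbour were; the cause was not tested. Without the barcode richest in TNFAIP3 and its satellite 1 other chemokine was lower, 6 listed genes were higher, the difference of TNFAIP3 was 0.45 and that of CCL20 1.01. Single-barcode means gave 0.79 for TNFAIP3. Scalings moved the median of all genes by -0.12 (TMM) to 0.10 (median of ratios). Depth limits CXCL1, CXCL8 and every statement on joint detection.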

Other observations

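CCL5 was concentrated in single barcodes of both lines. In MDAMB468 97 of its 105 UMIs lay in 1 of the 6 barcodes with any, and in CAL51 100 of 301 lay in 1 of 41. IER3, an early response gene that NF-kB also switches on, was high throughout MDAMB468 (8517 UMIs, 1548 CPM, interval of the ratio to CAL51 6.50 to 7.02), and in the barcode richest in TNFAIP3 it stood at 1835 CPM against 1544 in the others. Both genes were picked after their values were seen.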
